A study of Rattus norvegicus with 12 samples.

Results

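The interferon regulatory factors (IRFs) described here are 7 genes, Irf7, Irf1, Irf2, Irf3, Irf5, Irf8 and Irf9, of 17337 genes counted in rat whole blood. They were chosen by gene symbol from the deposited counts, with earlier results of these libraries known in which Irf7 stood out between the strains. Strain differences of the 7 genes are therefore given as descriptions without a test. The comparison of restrained with unrestrained rats, and the difference in that response between strains, were tested.

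RNA was sequenced from blood of adult male rats of 2 inbred strains, Wistar Kyoto (WKY) and Fischer (F344). The rats were 70 to 90 days old at the start. Contextual fear conditioning came first, then 4 weeks of rest in the home cage, and a second conditioning came at the end, so the unrestrained groups also carried both conditionings. Chronic restraint stress (CRS) lasted 2 h a day for 2 weeks, and the no-stress (NS) rats were left in the home cage over that time. The groups were WKY after CRS, WKY NS, F344 after CRS and F344 NS, with 3 libraries each. Blood was taken at decapitation, 24 h after the last conditioning day. Nothing in the labels ties each library to its own rat, so the p-values reflect variation from library to library, which may be technical. The groups carry no transgene or knockout, and strain here means the whole genome and any difference in the animals' history.

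IRFs are transcription factors that bind repeated GAAA letters in the promoters of interferons and interferon-stimulated genes. IRF3 and IRF7 are activated by phosphorylation downstream of nucleic acid sensors and switch on type I interferon genes. Secreted interferon then acts through its receptor on a complex that holds IRF9 and STAT2, which raises the transcription of antiviral effector genes and of Irf7 itself. In blood, Irf7 is known for high levels in plasmacytoid dendritic cells, IRF8 for its part in monocyte and dendritic cell development, and IRF5 for inflammatory cytokine genes in myeloid cells.

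The promoter of Irf7 is shown because its letters carry the repeats that IRFs bind. It lies at chr1:205799974-205800273 of RefSeq build GRCr8 on the minus strand, and holds 250 bases before and 50 after the annotated start. GRCr8 is another build than the rn6 named for the counts, and it comes from the Brown Norway strain, so the letters in WKY and F344 rats are not shown. Capitals mark 2 matches to GAAA repeats, read here on the opposite strand as TTTC. GAAANNGAAA (2 free bases between the repeats) matched at position -69 from the annotated start, and GAAANGAAA (1 free base) at position -48.
Irf7: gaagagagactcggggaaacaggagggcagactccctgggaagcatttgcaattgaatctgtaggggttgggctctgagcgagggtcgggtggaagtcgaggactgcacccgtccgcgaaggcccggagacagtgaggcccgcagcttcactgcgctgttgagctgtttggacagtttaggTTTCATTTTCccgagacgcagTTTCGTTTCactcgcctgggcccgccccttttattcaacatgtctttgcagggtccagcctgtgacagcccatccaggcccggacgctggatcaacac

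Both spacings and TTCNNNGAA, the core of the element bound by STAT factors, were searched on both strands in 33469 RefSeq promoters. The motifs were chosen after some of these promoters had been seen. GAAANNGAAA was in 3.92% of all promoters, GAAANGAAA in 3.5% and TTCNNNGAA in 8.87%, and the first 2 can overlap. Among the 6 members with a promoter in the table, Irf7 alone held GAAANNGAAA, while Irf7 and Irf3 held GAAANGAAA. Irf1, Irf8 and Irf9 held TTCNNNGAA, and Irf5 held none of the 3 motifs. A match describes letters, and whether a factor binds there was not measured. The stretches with the matches in capitals, each with 20 bases on either side, show the members that differ in which repeat they carry.
Irf3, GAAANGAAA at -33, chr1:104616555-104616603 of GRCr8, plus strand: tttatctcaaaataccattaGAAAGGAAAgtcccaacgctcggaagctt
Irf1, TTCNNNGAA at -142, chr10:38417773-38417821 of GRCr8, plus strand: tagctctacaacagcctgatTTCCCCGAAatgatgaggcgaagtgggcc
Irf8, TTCNNNGAA at -161, chr19:65699103-65699151 of GRCr8, plus strand: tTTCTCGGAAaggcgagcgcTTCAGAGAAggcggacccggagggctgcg
Irf9, TTCNNNGAA at -99, chr15:33065717-33065765 of GRCr8, plus strand: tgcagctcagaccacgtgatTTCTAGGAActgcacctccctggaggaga

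The same search is shown for genes described below beside Irf7. Oas1a and Lgals3bp, which encode interferon-stimulated proteins, and RT1-S3, the gene with the most similar levels, each held GAAANNGAAA. In Oas1a, 2 matches overlapped. Mx1, Lyz2, Supt5h and Stk4, further genes with levels like those of Irf7, held none of the 3 motifs.
Oas1a, GAAANNGAAA at -35, chr12:41330411-41330460 of GRCr8, plus strand: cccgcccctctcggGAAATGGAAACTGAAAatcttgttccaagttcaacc
Lgals3bp, GAAANNGAAA at -50, chr10:104127869-104127918 of GRCr8, minus strand: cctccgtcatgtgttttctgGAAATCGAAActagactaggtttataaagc
RT1-S3, GAAANNGAAA at -112, chr20:2675396-2675445 of GRCr8, plus strand: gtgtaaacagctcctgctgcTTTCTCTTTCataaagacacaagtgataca
Of the interferon-stimulated effector genes described below, 29 that passed the low count filter had a promoter in the table, and 16 of these (55.2%) held GAAANNGAAA. GAAANGAAA was in 6 of the 29 and TTCNNNGAA in 5.

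Reads assigned to genes numbered 1691956 to 3846263 per library, but 88.9% to 94.6% of them fell on 3 abundant features, leaving 90796 to 419789 counts for the other genes. A single count was worth 0.202 to 1.14 CPM, the count scaled to a common library total with the TMM method. F344 NS libraries were the shallowest, with 90796 to 220499 such counts, against 281942 to 419789 in F344 libraries after CRS, and F344 NS replicates 2 and 3 stood apart on the first principal component. The blood label fits the markers: hemoglobin and other red cell genes summed to 20903 CPM or more in each library. Irf7 rested on 6870 counts over 12 libraries and on at least 44 in each. The other 6 members rested on 121 to 359 counts each, and in some libraries on a single count, so their values are coarse. All 7 passed the low count filter, as did 2781 genes in all. Counts are not corrected for gene length, so levels are compared within a gene and not between genes.

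Irf7 was higher in WKY than in F344 blood under both treatments. After CRS, it stood at 309, 363 and 252 CPM in the WKY libraries, against 77.7, 87.0 and 101 CPM in the F344 libraries. Without stress, it stood at 271, 273 and 219 CPM in the WKY libraries, against 56.0, 59.7 and 50.3 CPM in the F344 libraries. All 6 WKY libraries, at 219 to 363 CPM, lay above all 6 F344 libraries, at 50.3 to 101 CPM. The group means were 308 ± 55.8 CPM in WKY after CRS, 254 ± 30.9 in WKY NS, 88.5 ± 11.5 in F344 after CRS and 55.3 ± 4.72 in F344 NS (SD, n = 3 each). In this order the 2 WKY groups overlapped in TMM-scaled CPM, while every other pair of neighbouring groups was separated. The ratio of means of WKY to F344 was 3.48 after CRS and 4.60 without stress. On the log2 scale of the fit, the strain difference was 1.80 (SE 0.286) after CRS and 2.19 (SE 0.297) without stress. No p is given because Irf7 was picked with this difference known. Over all genes, edgeR called 1.29% of 2781 between the strains after CRS and 0.683% without stress. Irf7 was among them in both cases, which the choice of the gene already implies. In bulk blood, more cells that hold Irf7 and more Irf7 RNA per cell cannot be told apart.

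**Figure D1:**
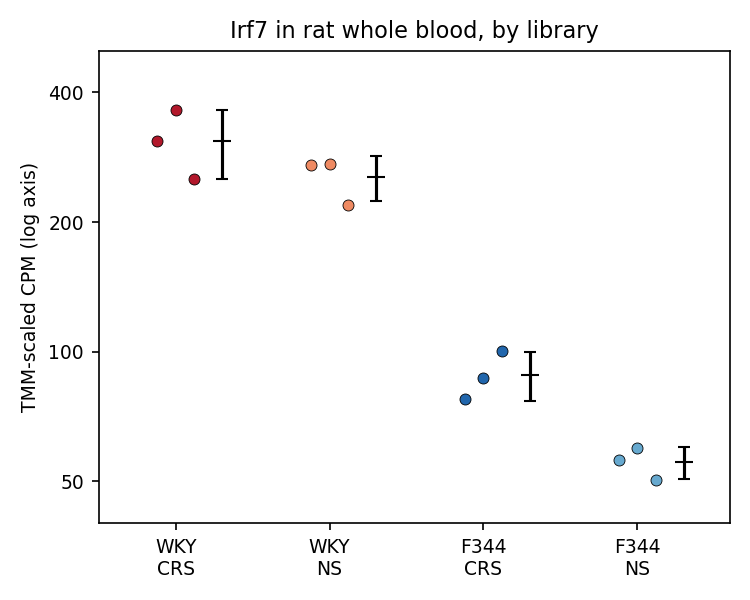
Irf7 level in TMM-scaled CPM (log axis) in each of 12 libraries, by strain and treatment; points are libraries, and the bar beside them is the mean ± SD of 3. The WKY libraries lie at 219 to 363 CPM, above the F344 libraries at 50.3 to 101 CPM.

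Within F344, Irf7 was 1.60 times higher in mean after CRS than without stress in TMM-scaled CPM. There the 3 libraries after CRS lay above the 3 NS libraries. With counts scaled to the library total without TMM, these groups overlapped. F344 CRS replicate 2 then stood at 81.6 CPM, below F344 NS replicate 1 at 83.0 CPM. Within WKY, the ratio of CRS to NS was 1.21 and the groups overlapped. The log2 fold change of CRS over NS was 0.67 in F344 (SE 0.289; edgeR adjusted p = 0.918, unadjusted p = 0.026) and 0.28 in WKY (SE 0.277; edgeR adjusted p = 0.975, unadjusted p = 0.327). Averaged over the strains it was 0.47 (SE 0.200), with an edgeR adjusted p of 0.612 and an unadjusted p of 0.0235. The response in WKY minus that in F344 was -0.40 (SE 0.400), with an edgeR adjusted p of 0.993, so no difference in response was detectable. None of these passed the threshold of 0.05 over all genes. For comparison, unadjusted p-values under 0.05 were held by 4.67% of all genes in F344, by 5.79% in WKY and by 7.08% for the average. The direction in WKY turned round, to -0.066, when libraries were scaled by their counts outside the 3 abundant features without TMM. Under that scaling the median of all genes also moved, to -0.32. In F344, that scaling gave 0.73. With both shallow F344 NS libraries left out, F344 gave 0.73 as well, with an adjusted p of 0.997 and 1 NS library assumed to vary like the other groups. Without the low count filter, the fold change in F344 came to 1.05, at an adjusted p of 0.590.

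Summed markers of blood cell types are given beside Irf7, and their part in its values was not tested. The summed CPM of 10 monocyte markers was 120 to 167 in WKY after CRS, 117 to 134 in WKY NS, 82.3 to 88.5 in F344 after CRS and 56.6 to 71.4 in F344 NS. All 10 were in the files, none was at 0 in all libraries, and 4 passed the filter. Of these 4, Cybb, a subunit of the phagocyte oxidase, was called between strains after CRS (log2 1.88, edgeR adjusted p = 0.0114). Cybb had at most 9 counts in any F344 library and passed the filter through the WKY libraries, which limits its calls. Lyz2, lysozyme of myeloid cells, made up 72.6% to 82.0% of the summed level in the 4 groups. It missed the threshold within each treatment (log2 0.96 after CRS and 1.03 without stress, edgeR adjusted p = 0.0724 and 0.075) and was called in the strain difference averaged over treatments (log2 1.00, edgeR adjusted p = 0.00112), as was Cybb (log2 1.73, adjusted p = 0.000859). The other 2, Csf1r and Vcan, were not called in any strain comparison. Csf1r, a receptor of the monocyte lineage, differed by 0.07 after CRS and 0.97 without stress, and Vcan, a proteoglycan, by -0.99 and -0.43. The 9 platelet markers in the files summed to 82.5 to 130 CPM in WKY after CRS, 44.1 to 96.5 in WKY NS, 71.9 to 82.3 in F344 after CRS and 34.3 to 55.7 in F344 NS, and Gp1bb was at 0 in all libraries. The platelet means of WKY NS and F344 after CRS were alike, at 75.2 and 75.5 CPM. Of 6 platelet markers past the filter, 5 were higher in WKY after CRS and 1, Gp1ba, was lower (log2 -1.01). In the average over treatments edgeR called 2 of the 6 higher in WKY. These were Pf4 (log2 0.80, edgeR adjusted p = 0.0483) and Itgb3 (log2 0.81, adjusted p = 0.0416). T cell markers ran the other way, at 27.5 to 39.0 CPM in WKY after CRS, 31.1 to 37.5 in WKY NS, 39.9 to 50.5 in F344 after CRS and 42.6 to 56.5 in F344 NS. Of 8 past the filter, 1, Lef1, was called lower in WKY in the average (log2 -1.08, edgeR adjusted p = 0.0381). After CRS, B cell markers were at 18.1 to 20.9 CPM in WKY and 25.6 to 27.6 in F344. Without stress they overlapped between strains. Neutrophil and natural killer cell sums overlapped between all 4 groups.

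Markers of plasmacytoid dendritic cells, the blood cells best known for Irf7, were sparse, and their summed levels overlapped between all 4 groups. Of the 10 listed, 8 were in the files and none was at 0 in all libraries. Their summed level was 6.11 to 9.20 CPM in WKY after CRS, 8.75 to 13.1 in WKY NS, 5.80 to 9.49 in F344 after CRS and 4.26 to 9.65 in F344 NS. Runx2 was the only marker past the filter, at 1.53 ± 0.215 CPM in WKY after CRS and 1.40 ± 0.960 in F344 after CRS (SD, n = 3 each), and at 2.70 ± 1.41 CPM in WKY NS against 1.32 ± 0.813 in F344 NS. Spib, a factor of these cells, had 17 counts over the 3 libraries of WKY after CRS, 27 in WKY NS, 16 in F344 after CRS and 8 in F344 NS.

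Irf3 and Irf5 stand beside Irf7 downstream of the sensors. Irf3, which is made constitutively and activated by phosphorylation, had 1.27, 2.62 and 1.31 CPM in WKY after CRS, against 4.60, 2.62 and 3.10 CPM in WKY NS. The WKY groups did not overlap, although the nearest libraries of both stood at 2.62 CPM. In F344, Irf3 had 4.44, 3.41 and 2.64 CPM after CRS, against 3.59, 6.09 and 2.29 CPM in NS, and the groups overlapped. The log2 fold change of CRS over NS was -1.08 in WKY (SE 0.515; edgeR adjusted p = 0.827, unadjusted p = 0.0438) and -0.23 in F344 (SE 0.476; edgeR adjusted p = 1.000). Irf3 rested on 2 to 22 counts per library.

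Irf5, which works with MyD88 below Toll-like receptors, ran in opposite directions in the 2 strains. In WKY it had 6.11, 4.80 and 5.26 CPM after CRS, against 3.45, 1.97 and 3.10 CPM in NS. In F344 it had 2.42, 2.39 and 3.25 CPM after CRS, against 4.41, 7.31 and 3.43 CPM in NS. The groups did not overlap in either strain in TMM-scaled CPM, where the TMM factors ran from 0.519 to 1.53. With counts scaled to the library total without TMM, the groups overlapped in both strains. F344 NS replicate 3 then stood at 1.77 CPM, below the F344 libraries after CRS at 3.69, 2.24 and 4.16 CPM. WKY NS replicate 1 stood at 4.78 CPM, above WKY CRS replicates 2 and 3 at 3.92 and 4.48 CPM. The log2 fold change was 0.91 in WKY (SE 0.411; edgeR adjusted p = 0.787, unadjusted p = 0.033) and -0.91 in F344 (SE 0.436; edgeR adjusted p = 0.918, unadjusted p = 0.0446). The response in WKY minus that in F344 was 1.82 (SE 0.600), with an unadjusted p of 0.00445 and an edgeR adjusted p of 0.993, so it did not pass over all genes. In TMM-scaled CPM, 0.431% of genes, 12 of 2781, separated in both strains in opposite directions. A further 0.719% did so in the same direction, with no member among those. Within a single strain, 10.1% of genes separated in WKY and 11.9% in F344. Whether 0.431% differs from what these shares would give was not tested. The F344 NS library nearest to the CRS libraries rested on 3 counts, an error of 57.7% from counting alone. With both shallow F344 NS libraries left out, the difference in response was 1.55, with an unadjusted p of 0.0274 and an adjusted p of 0.998.

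Irf8, a factor of monocyte and dendritic cell development, had the reverse pattern. In WKY it had 1.78, 2.62 and 2.30 CPM after CRS, against 3.45, 4.26 and 4.26 CPM in NS, and the groups did not overlap. In F344 it had 4.64, 4.44 and 2.64 CPM after CRS, against 2.76, 1.83 and 1.14 CPM in NS, with a small overlap. The log2 fold change of CRS over NS was -0.84 in WKY (SE 0.471) and 0.81 in F344 (SE 0.505), with edgeR adjusted p-values of 0.945 and 0.943. The response in WKY minus that in F344 was -1.65 (SE 0.690), with an unadjusted p of 0.022 and an edgeR adjusted p of 0.993. Both shallow F344 NS libraries held few counts of Irf8, 3 and 1, and without them the difference was -1.38, with an unadjusted p of 0.0741. Over all genes, 3.81% had an unadjusted p under 0.05 for the difference in response, and 0% passed after adjustment. Irf5 and Irf8 were the members with an unadjusted p under 0.05.

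Irf9, the DNA-binding partner of STAT2, was higher in WKY than in F344 after CRS. It had 3.82, 7.41 and 6.24 CPM in WKY after CRS, against 2.83, 2.05 and 3.25 CPM in F344 after CRS, and these groups did not overlap. Without stress, it had 5.76, 8.52 and 3.10 CPM in WKY, against 5.79, 1.83 and 2.29 CPM in F344, and the groups overlapped. The log2 strain difference was 1.02 (SE 0.434) after CRS and 0.58 (SE 0.460) without stress, given without a test. The log2 fold change of CRS over NS was -0.04 in WKY (SE 0.407) and -0.49 in F344 (SE 0.486), with edgeR adjusted p-values of 0.991 and 0.996. After CRS, in TMM-scaled CPM, Irf3 (log2 -1.07) and Irf8 (-0.81) were lower in WKY than in F344, and Irf5 (0.99) higher, without overlap. Irf1 (0.11) and Irf2 (0.01) overlapped. Without stress, Irf8 was higher in WKY without overlap (0.84), while Irf3 (-0.22), Irf5 (-0.83), Irf1 (-0.05) and Irf2 (0.08) overlapped. These differences are given without a test, and the share of all genes so separated between strains was not counted.

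Irf1 and Irf2 are a related activator and repressor, and Irf1 is induced by interferon gamma. Irf1 averaged 9.90 ± 3.53 CPM in WKY after CRS, 9.31 ± 3.08 in WKY NS, 8.82 ± 2.74 in F344 after CRS and 8.53 ± 4.61 in F344 NS (SD, n = 3 each). All 4 groups overlapped. Its log2 fold change of CRS over NS was 0.07 in WKY (SE 0.372) and -0.09 in F344 (SE 0.381), and both signs turned under some of the other settings. Irf2 averaged 2.85 ± 2.23 CPM in WKY after CRS, 3.91 ± 0.707 in WKY NS, 2.90 ± 1.91 in F344 after CRS and 3.51 ± 2.48 in F344 NS (SD, n = 3 each). Its log2 fold change was -0.36 in WKY (SE 0.523) and -0.29 in F344 (SE 0.557). Single libraries held 1 count of Irf2, in WKY after CRS and in F344 NS.

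**Figure D2:**
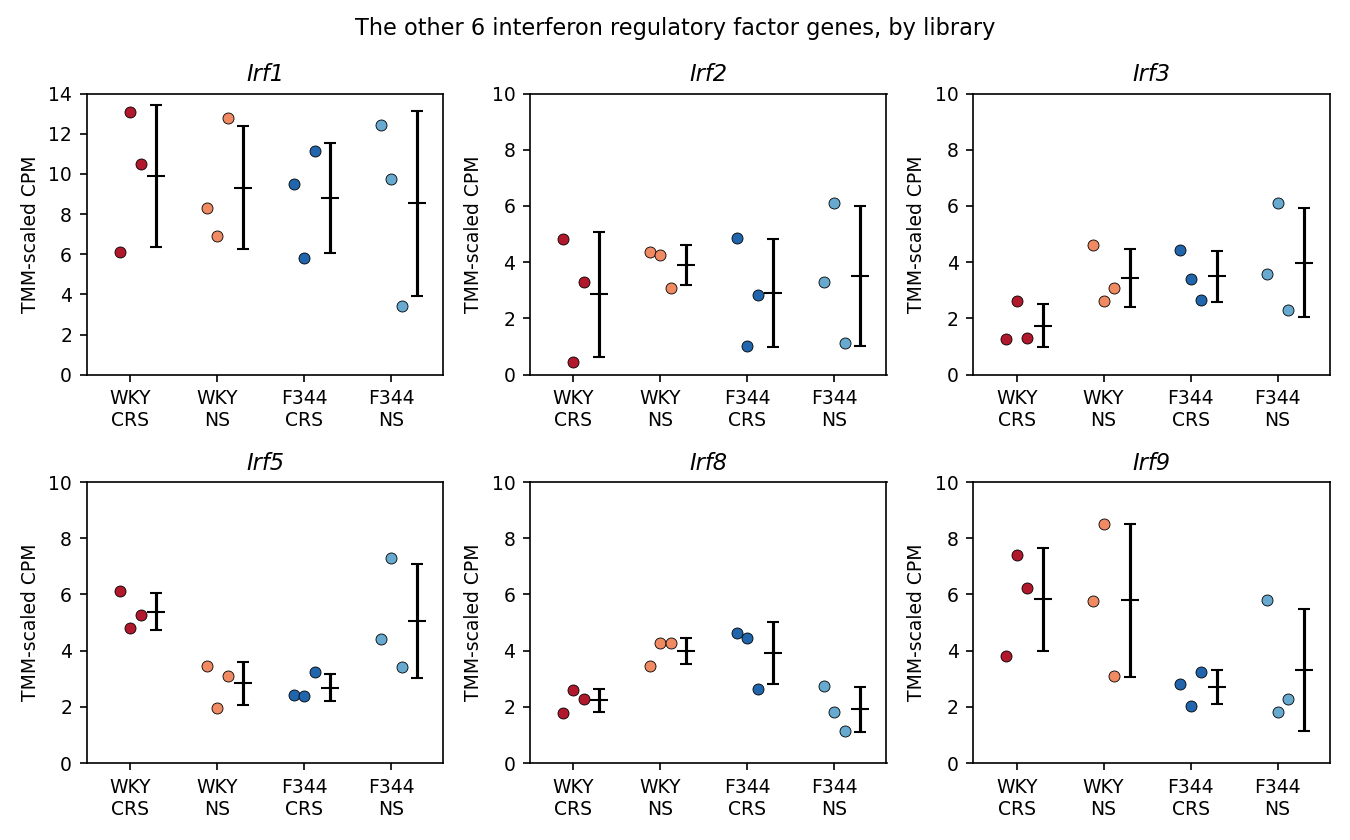
Levels in TMM-scaled CPM of the other 6 members in each library; points are libraries and bars are the mean ± SD of 3, with a taller axis for Irf1. Irf5 in WKY lies at 4.80 to 6.11 CPM after CRS, above 1.97 to 3.45 CPM in NS, and in F344 the order is the reverse.

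Read against all genes, no member passed the threshold in its response to CRS. In TMM-scaled CPM, groups did not overlap for 3 of 7 members in WKY, Irf3, Irf5 and Irf8, where 10.1% of all genes were so separated. In F344 they did not overlap for 2 of 7, Irf7 and Irf5, where 11.9% of all genes were so separated. Unadjusted p-values under 0.05 fell on Irf3 and Irf5 in WKY, on Irf7 and Irf5 in F344, and on Irf7 alone for the average, against the shares of all genes given above. With 7 members and few counts in most, these shares were not tested against those of all genes. After adjustment edgeR called no member in any of the comparisons of CRS with NS. It called 0% of all genes in WKY, 0% in F344 and 0.036%, 1 gene, for the average. DESeq2 and limma-voom also called no member. The median log2 fold change of the 7 members was -0.04 in WKY, with 3 positive, and -0.23 in F344, with 2 positive. Over all 2781 genes it was 0.02 in WKY, with 1425 positive, and 0.01 in F344, with 1418 positive.

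**Figure D3:**
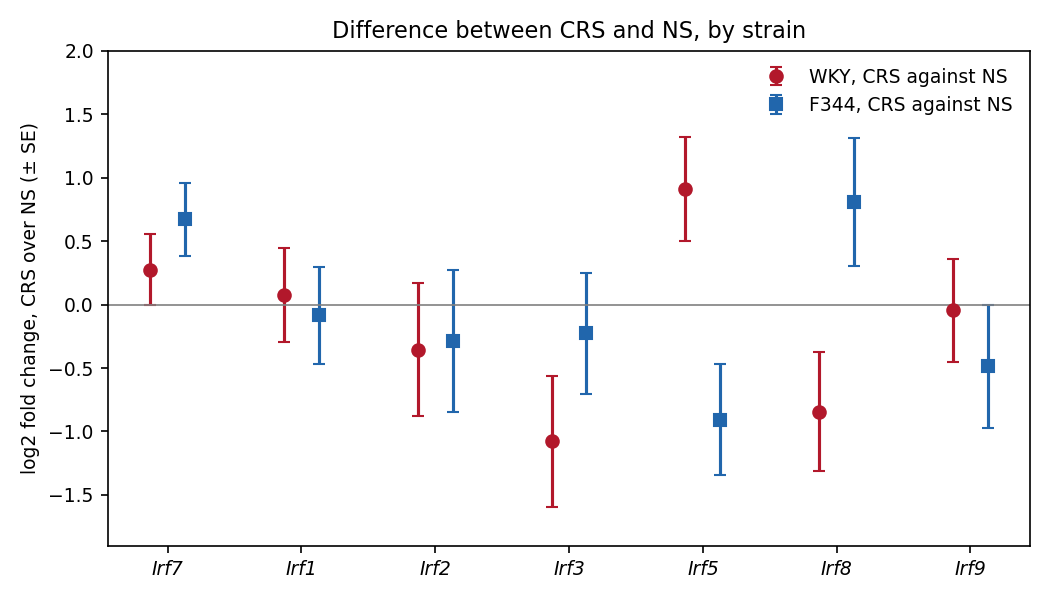
Log2 fold change of CRS over NS for the 7 members, in WKY (circles) and F344 (squares), with bars of 1 SE from the edgeR fit. Irf5 lies at 0.91 in WKY and -0.91 in F344, and Irf8 at -0.84 in WKY and 0.81 in F344.

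The genes of the interferon pathway were taken from 9 lists with 195 genes, of which 91 passed the filter. The lists were written with earlier results of these libraries known, so their counts are a description. Between strains, edgeR called 6 of the 91 after CRS, where 1.29% of all genes were called, and 3 without stress, where 0.683% were. All were higher in WKY, and all were interferon-stimulated effectors. In the strain difference averaged over treatments, where 3.74% of all genes were called, edgeR called 12 of the 91, all higher in WKY: 11 effectors and Tapbp of the antigen presentation list. DESeq2 and limma-voom each called 11 there. Beyond the effectors described below, those called in the average were Ifit3 (log2 1.27), Ifit2 (1.64), Oas3 (1.42) and Phf11 (1.58), named after their values were seen, with edgeR adjusted p-values of 0.00477, 0.00505, 0.00647 and 0.0428. For CRS averaged over strains edgeR called none of the 91, and neither DESeq2 nor limma-voom called any. Before adjustment 4 of the 91 had an edgeR p under 0.05, against 7.08% of all genes. The same 3 tools also called none for CRS within WKY or F344. Each had 4 of 91 at an unadjusted p under 0.05 in edgeR, against 5.79% of all genes in WKY and 4.67% in F344.

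Among the 66 listed effectors, 54 were in the files and 36 passed the filter. The median log2 difference of WKY over F344 was 0.61 after CRS, with 31 of 36 positive, and 0.65 without stress, with 30 of 36 positive. Over all genes the medians were 0.01, with 1400 of 2781 positive, and -0.01, with 1372 of 2781 positive. The low count filter asks for enough counts in any 3 libraries, so a gene could pass through the WKY libraries alone. Oas1a and Rtp4 did so, with at most 4 counts in any F344 library. Isg15 and Mx2, with at most 13 and 15, would also not have passed through F344 libraries alone. Outside the effectors this held for Usp18, with at most 7. Strain calls of such genes carry the same limit, and not every gene was checked for it. Such genes count as positive through the group that let them pass, and how far this shifts the shares was not tested. Oas1a makes the 2'-5' oligoadenylate that activates RNase L. It had 9.17, 7.85 and 5.91 CPM in WKY after CRS, against 0.807, 0.683 and 0.406 CPM in F344 after CRS. Without stress it had 8.52, 7.54 and 5.03 CPM in WKY, against 0.276, 0.609 and 1.14 CPM in F344, where each library held 1 count. The pooled counts without stress, 73 in WKY against 3 in F344, gave a ratio of 15.0, with an exact 95% interval of 4.93 to 74.3 that covers counting error only. The log2 difference of Oas1a was 3.54 after CRS (edgeR adjusted p = 1.21e-05) and 3.74 without stress (adjusted p = 0.000486).

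Mx2 and Mx1 encode dynamin-like antiviral GTPases. Mx2 had 9.17, 9.60 and 8.21 CPM in WKY after CRS, against 1.82, 1.37 and 3.04 CPM in F344 after CRS. Its log2 difference was 2.04 after CRS (edgeR adjusted p = 0.0012) and 1.59 without stress (adjusted p = 0.0716, not called). Isg15, a ubiquitin-like modifier, had 8.92, 8.72 and 5.59 CPM in WKY after CRS, against 2.62, 1.37 and 0.812 CPM in F344 after CRS. Its log2 difference was 2.22 after CRS (edgeR adjusted p = 0.0055) and 2.22 without stress (adjusted p = 0.0697, not called). Lgals3bp, a secreted galectin-binding glycoprotein, averaged 18.9 ± 10.9 CPM in WKY after CRS against 5.69 ± 0.393 in F344 after CRS, and 18.6 ± 8.06 in WKY NS against 4.61 ± 0.978 in F344 NS (SD, n = 3 each). It was called after CRS (log2 1.71, edgeR adjusted p = 0.00972) and without stress (log2 2.09, adjusted p = 0.0106). Mx1 was called after CRS (log2 1.19, edgeR adjusted p = 0.0431) and missed the threshold without stress (log2 1.38, adjusted p = 0.0611). The remaining 2 called genes were named after their values were seen: Rtp4, a receptor transporter, after CRS (log2 2.60, edgeR adjusted p = 0.0205), and Ifi27 without stress (log2 2.14, adjusted p = 0.0357). Oas, Mx and Ifi27 genes have close relatives, and how reads shared with them were counted is not given in the sources used here.

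Oas1a kept its call in both treatments, and Mx2 its call after CRS, in all 12 edgeR fits that left out 1 library. With limma-voom, Oas1a without stress missed the threshold (log2 2.79, adjusted p = 0.0553), and none of the 91 pathway genes was called without stress. Isg15 after CRS lost its call without F344 CRS replicate 3 (adjusted p = 0.0866). Lgals3bp after CRS lost it without F344 CRS replicate 1 (0.066), F344 CRS replicate 3 (0.070) or WKY CRS replicate 2 (0.143). Lgals3bp without stress lost it without F344 NS replicate 1 (0.0638), F344 NS replicate 2 (0.0945) or WKY NS replicate 2 (0.104). Rtp4 lost it without F344 CRS replicates 1, 2 or 3 or WKY CRS replicate 3 (adjusted p 0.066, 0.0735, 0.139 and 0.211). Ifi27 lost it without any of F344 NS replicates 2 and 3 or WKY NS replicates 1, 2 and 3 (0.241, 0.0816, 0.146, 0.0506 and 0.0507). Mx1 after CRS kept its call in only 5 of the 12 fits, with adjusted p-values up to 0.301, and lost it without any 1 of the 6 libraries after CRS or F344 NS replicate 3. Calls were also gained. Mx1 without stress passed without WKY NS replicate 2 (adjusted p = 0.0493) or WKY CRS replicate 2 (0.0454), and Isg15 without stress passed without WKY NS replicate 3 (0.0200). Ifi27 after CRS passed without F344 NS replicate 2 (0.0298) or WKY CRS replicate 3 (0.0296).

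**Figure D4:**
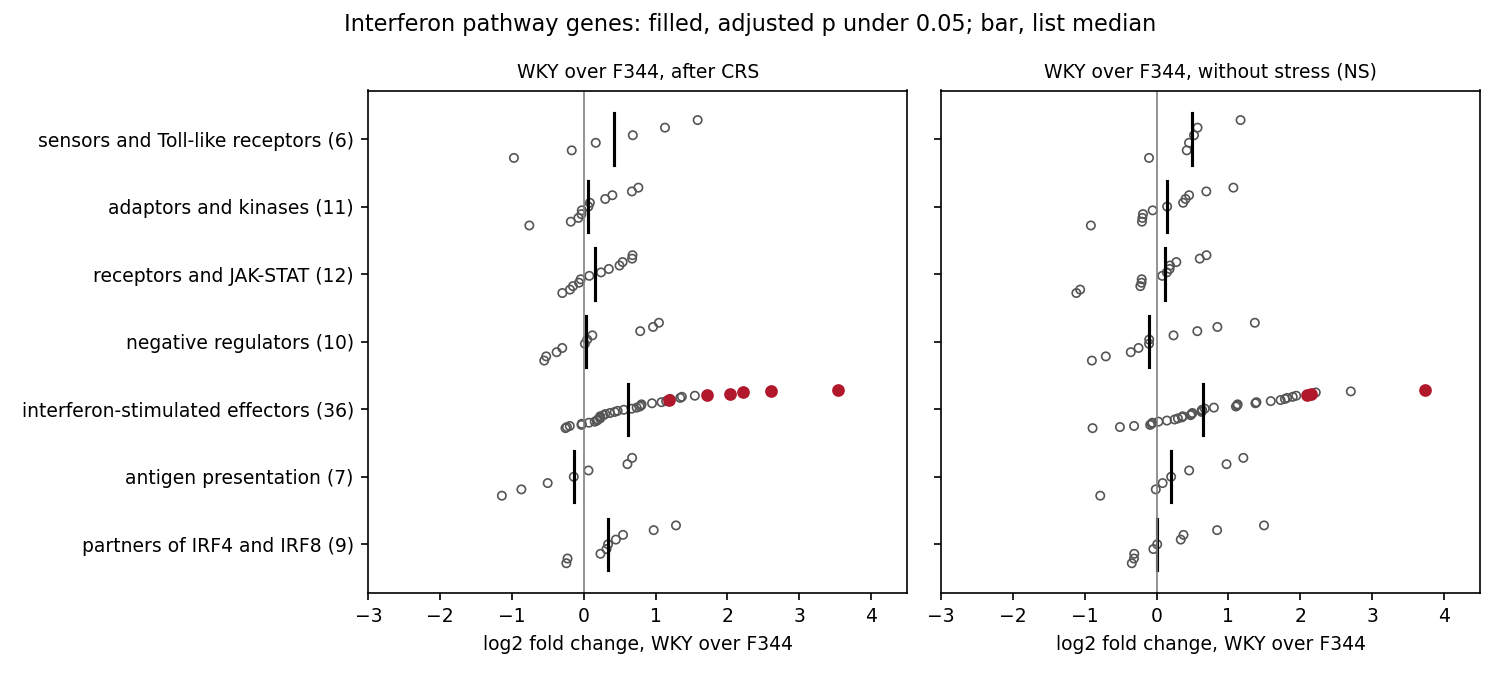
Log2 fold change of WKY over F344 for 91 genes of 7 pathway lists after CRS (left) and without stress (right); each circle is a gene, filled where the edgeR adjusted p is under 0.05, and the bar is the list's median. The effector list has medians of 0.61 and 0.65 and holds all the filled points.

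In the signalling lists edgeR called no gene between strains, either within a treatment or averaged. Of 22 listed nucleic acid sensors and Toll-like receptors, 6 passed the filter, and the helicase Ddx41 had the smallest p (log2 1.58 after CRS, edgeR adjusted p = 0.113). Of 24 adaptors and kinases, 11 passed. Among these, the kinase Irak1 had a log2 difference of 0.67 after CRS (edgeR adjusted p = 0.45), and Myd88, which links Toll-like receptors to IRF5 and IRF7, had -0.76 after CRS and 1.07 without stress (edgeR adjusted p = 0.549 and 0.539). Of 16 interferon receptor and JAK-STAT genes, 12 passed the filter. Stat2, a partner of IRF9, had positive differences of 0.68 after CRS and 0.69 without stress (edgeR adjusted p = 0.516 and 0.637). The receptor chain Ifnar1 differed by -0.15 after CRS and 0.14 without stress (edgeR adjusted p = 0.912 and 0.942). Stat5b had the smallest p of its list, at a log2 difference of -1.06 without stress (edgeR adjusted p = 0.301).

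Of 21 negative regulators, 10 passed the filter, with the deubiquitinase Cyld at the smallest p (log2 0.96 after CRS, edgeR adjusted p = 0.349). Usp18, an interferon-induced brake on the receptor, had 3.04 ± 1.21 CPM in WKY after CRS against 1.45 ± 0.249 in F344 after CRS (SD, n = 3 each), and was not called (log2 1.05, edgeR adjusted p = 0.545). Of 11 antigen presentation genes, 7 passed, and Tapbp, a chaperone of peptide loading, had the smallest p within a treatment (log2 1.21 without stress, edgeR adjusted p = 0.178) and was called in the average over treatments (log2 0.91, edgeR adjusted p = 0.0417). In this list the response to CRS in WKY minus that in F344 had a median log2 of -0.91, with 1 of 7 positive, against -0.02 over all genes, with 1358 of 2781 positive, and edgeR called none. Of 18 listed partners of IRF4 and IRF8, 9 passed the filter, with Cebpb at the smallest p (log2 1.28 after CRS, edgeR adjusted p = 0.257). Spi1, the partner of IRF8 in myeloid cells, differed by 0.32 after CRS and 0.37 without stress (edgeR adjusted p = 0.871 and 0.907).

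Interferon transcripts were at or near 0. Of 12 listed interferon genes, 6 were in the files: Ifna1 had 1 count, in F344 after CRS, Ifng had 1 count, in WKY after CRS, and Ifna2, Ifna4, Ifnb1 and Ifnk had none. At this depth a low level of these transcripts was not detectable. Irf4, the lymphoid member of the family, had 68 counts over 12 libraries and was under the filter. Irf4 counts were 16 in WKY after CRS, 18 in WKY NS, 20 in F344 after CRS and 14 in F344 NS.

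The genes whose levels were most like those of Irf7 were ranked by Pearson's correlation of log2(CPM + 1) over 12 libraries, among 1107 genes that averaged at least 5 CPM. These values are descriptions, and all genes share the libraries and their depths. RT1-S3, a class Ib gene of the rat major histocompatibility complex, came first at 0.985. It had 41.8, 54.5 and 40.7 CPM in WKY after CRS, against 14.1, 15.4 and 15.2 CPM in F344 after CRS. Without stress it had 45.4, 44.2 and 37.9 CPM in WKY, against 12.4, 14.6 and 11.4 CPM in F344. The gene belongs to a family of near copies, so its counts are uncertain. Lyz2 (0.942), Mx1 (0.921), Lgals3bp (0.898), Mx2 (0.891), Supt5h (0.881) and Stk4 (0.867) followed. Since the strains formed separate clusters, correlations within each strain are given beside it. Over the 6 WKY libraries and over the 6 F344 libraries, RT1-S3 had 0.872 and 0.843, Lgals3bp 0.742 and 0.505, Lyz2 0.03 and 0.906, Mx1 -0.10 and 0.753, and Mx2 0.534 and -0.38. Supt5h had 0.444 and -0.47, and Stk4 0.208 and 0.542.

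After subtracting each group's mean, the order changed. The ribosomal fusion gene Fau came first at 0.868, with Lgals9 at 0.861, RT1-S3 at 0.842, Ubac1 at 0.836 and Rpl10 at 0.806. RT1-S3 was the only gene in both rankings. Fau had 0.01 over the 12 libraries, so its likeness to Irf7 lay within groups and not between strains. Irf1 was the only other member past the level of 5 CPM, at 0.229 over the 12 libraries.

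**Figure D5:**
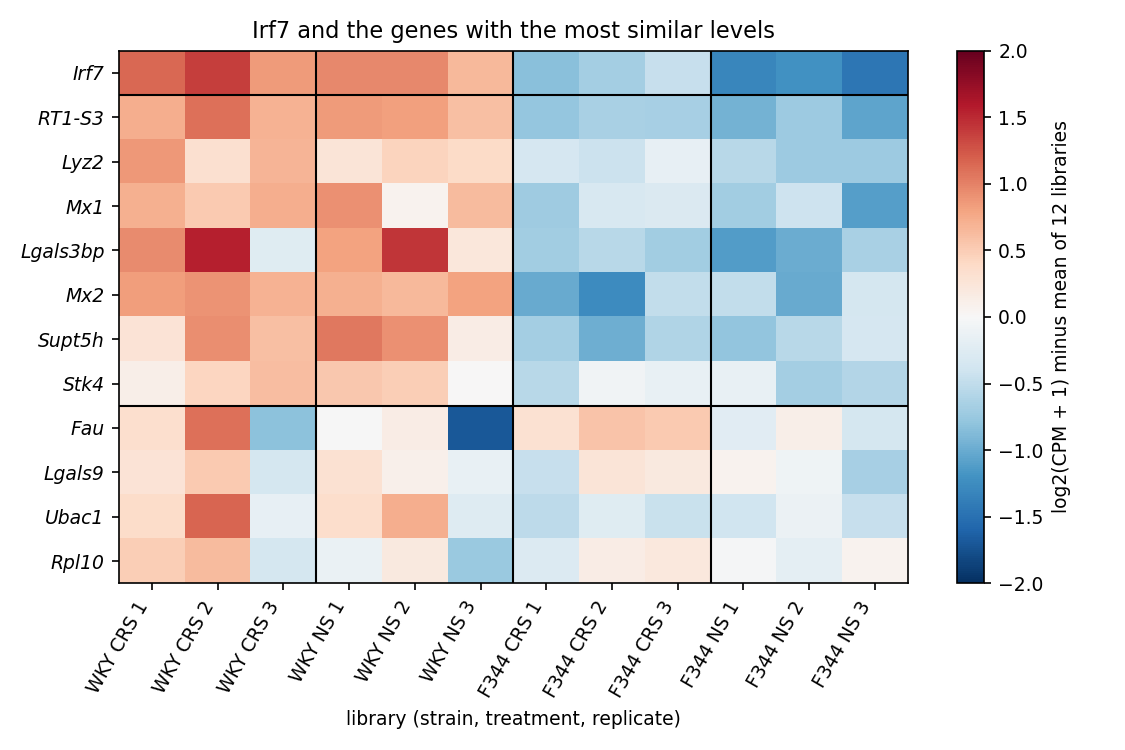
Log2(CPM + 1) of Irf7, 7 of the 8 genes most like it over 12 libraries and the 4 further genes most like it after subtracting group means, each relative to its own mean over 12 libraries; rows are genes, columns libraries. All 7 genes shown from the 12-library ranking are higher in each WKY column than in each F344 column, as is Irf7, whose likeness chose them. Fau and Rpl10 show no such split.

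Levels of neighbouring genes are given, and whether reads of adjoining transcripts were counted for a member was not tested. In the GRCr8 annotation Irf7 lies between Phrf1, on the opposite strand, and Cdhr5, and overlaps neither. Phrf1 had 3.59 ± 0.321 CPM in WKY after CRS against 6.45 ± 1.78 in F344 after CRS, and 5.01 ± 0.666 in WKY NS against 5.34 ± 1.60 in F344 NS (SD, n = 3 each). Its strain difference was -0.87 after CRS and -0.18 without stress (edgeR adjusted p = 0.349 and 0.932), not in the direction of Irf7. Cdhr5 had 12 counts in all. Irf3 overlaps Bcl2l12 on the opposite strand, which had 14 counts. The strand setting of the counting is not given in the sources used here, so reads of these genes cannot be told apart where they overlap. The tested neighbours Scaf1 of Irf3, Cox4i1 of Irf8 and Rnf31 of Irf9 were not called between strains, with edgeR adjusted p-values from 0.796 to 0.979.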

How the data were processed

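The deposited files hold raw read counts per gene, whole numbers that were not normalised, for 17337 genes in each of 12 libraries. Blood went into PAXgene tubes and was sequenced on the Ion Proton platform, per the labels' protocols. Build rn6 and the programs TopHat2 2.1.0, Cufflinks 2.2.1 and cutadapt 1.14 are listed, without roles, in the submitters' processing notes. Which program counted the reads, with which annotation and whether by strand, is not given in the sources used here. The files also hold 5 rows that name no gene, with 80.9% to 86.6% of all counts. These rows were left out of library sizes and tests.

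Counts were tested with the quasi-likelihood test of edgeR 4.0.16 (R 4.3.3) with TMM scaling. Its filter at a minimum count of 10 kept 2781 genes. A single fit of 4 group means gave 7 contrasts, two-sided, with Benjamini-Hochberg adjustment over the 2781 genes and a threshold of 0.05. The step was tested on simulated data. CPM are TMM-scaled, and CPM means are given with SD. Intervals cover counting error only.

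The members, the gene lists and the cell type markers were chosen with earlier results of these data known. Genes named beyond the members followed a rule: up to 4 genes per direction of each pathway list past the threshold in the strain contrast of either treatment or, where none passed, the gene with the smallest p; Stat2, Usp18, Isg15, Tlr7, Myd88, Ifnar1, Ifnar2 and Spi1 where they passed the filter; the 8 and 5 genes nearest to Irf7 by the 2 correlations; and the neighbours of each member. Tlr7 and Ifnar2 did not pass the filter. Some genes that the rule names are not reported here. Promoters and neighbours came from RefSeq tables of GRCr8, whose symbols include 14821 of the 17337. Alternatives were DESeq2 1.42.0 size factors and Wald test, limma-voom (limma 3.58.1), other low count filters, removal of abundant features and globin genes, fits of the compared groups alone, a replicate block, leaving out libraries and, added after seeing the data, library sizes without the 3 abundant features and without TMM.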

Additional observations from a re-analysis of the deposited data

Results flagged for a closer look

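Irf5 was picked out for its order in TMM-scaled CPM. Every WKY library after CRS lay above every WKY NS library, while every F344 library after CRS lay below every F344 NS library. With counts scaled to the library total without TMM, the groups overlapped in both strains. The Irf5 response to CRS in WKY minus that in F344 was 1.82 on the log2 scale (SE 0.600). Its edgeR unadjusted p was 0.00445, and its adjusted p was 0.993 over 2781 genes. The unadjusted p comes from the same values that picked Irf5 out, so it is no separate evidence for the pattern. Means were 5.39 ± 0.668 CPM in WKY after CRS against 2.84 ± 0.777 in WKY NS, and 2.69 ± 0.486 CPM in F344 after CRS against 5.05 ± 2.02 in F344 NS (SD, n = 3 each). Irf5 rested on 146 counts over 12 libraries. In TMM-scaled CPM, 12 of 2781 genes (0.431%) separated in both strains in opposite directions.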

How the results depend on the processing

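Irf7 passed the threshold in no comparison of CRS with NS under any alternative run. Its direction turned only in WKY, at -0.066 with library sizes taken outside the 3 abundant features and no TMM. Its strain difference without stress came to 2.45 without the low count filter and 2.44 with those library sizes. After CRS it ranged from 1.64 to 1.83 over the alternatives other than leaving out 1 library. Pathway genes called without stress numbered 0 with limma-voom, 6 without the filter, 5 with the replicate block, 1 with both shallow F344 NS libraries left out, and 1 to 4 with 1 library left out. After CRS they numbered 2 with the strict filter, which removed Oas1a, Mx2, Isg15 and Rtp4 before testing. They numbered 3 with library sizes outside the abundant features, 2 to 7 with 1 library left out, and 7 with the replicate block.

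Irf1, Irf2, Irf3 and Irf9, which rest on few counts, changed direction under some alternatives. Irf1 in F344 came to 0.15 with limma-voom and 0.26 without the filter. Irf1 in WKY came to -0.018 with limma-voom and -0.30 with library sizes outside the abundant features. The Irf1 response in WKY minus that in F344 came to -0.17, -0.16 and -0.25 with limma-voom, without the filter and with those library sizes. With those library sizes the median of all genes moved to -0.32 in WKY and -0.41 for the difference, and without the filter to -0.24 for the difference, so relative to it Irf1 did not turn in these cases. Without the filter, Irf2 in F344 came to 0.071 and Irf3 in F344 to 0.12, and Irf3 to 0.036 without both shallow libraries. With 1 library left out, Irf1 ranged from -0.16 to 0.35 in WKY, -0.30 to 0.33 in F344 and -0.25 to 0.42 for the difference. Irf2 ranged from -0.96 to 0.059 in WKY, -0.83 to 0.19 in F344 and -0.70 to 0.48 for the difference. Irf3 ranged from -0.45 to 0.15 in F344. Irf9 ranged from -0.31 to 0.33 in WKY, -0.75 to 0.49 in F344 and -0.53 to 0.77 for the difference. The cause of these changes was not tested. Irf5 and Irf8 kept their directions in every alternative run.

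Replicate numbers were not taken as pairs: same-numbered libraries of different groups had correlations of -0.09 to 0.20 in their deviations from group means, with 4 of 18 over 0.1, against 2 of 36 among other numbers. As a hint from the data, not the design, the best match shared the number in 9 of 12 libraries. With the replicate block, Irf7 gave 0.69 in F344 and 0.27 in WKY, with adjusted p-values of 0.777 and 0.957. Fits of the compared groups alone give no average over strains and no difference in response. Over all alternatives, which tested 1293 to 15012 genes, genes called ranged from 5 to 45 without stress and 18 to 50 after CRS, against 19 and 36 of 2781.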
